A study of Bos grunniens and Bos grunniens x Bos taurus with 12 samples.

Results

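The genes of the synaptonemal complex were followed in ribosome footprint data (Ribo-seq, sequencing of the mRNA fragments covered by ribosomes) from whole testis of yak and cattle–yak. The set was defined by name as 9 symbols, *SYCP1*, *SYCP2*, *SYCP3*, *SYCE1*, *SYCE2*, *SYCE3*, *TEX12*, *HORMAD1* and *HORMAD2*. Of these, 8 had 1 row each among the 20965 genes of the deposited tables, and *SYCE3* was not among the 13662 rows that carry a symbol. Each row had an expected count and an FPKM value (fragments per kilobase of effective length and of library total) in 12 libraries. The libraries came from 4 groups of 3 animals: yak of 6 months (juvenile), yak of 18 months (puberty), yak of 4 years and cattle–yak of 4 years (both sexually mature). The cattle–yak were hybrids of Jersey cattle bulls and Gannan yak cows, whose males are sterile, and the labels name no treatment. Per the study's methods, testes of the 4-year yaks were taken after euthanasia and those of the cattle–yak by surgical castration. The way of collection and the hybrid genotype therefore cannot be told apart between these groups. Each library held the whole organ, so all cell types of the testis contributed, and a lower number of cells of a type and less RNA per cell cannot be told apart. The reads of the hybrids, which carry 1 cattle and 1 yak genome, were aligned to the yak genome by the authors, and the part of this in the hybrid values was not tested. Footprint levels combine the amount of an mRNA with its ribosome load, and RNA libraries were not analysed here.

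The synaptonemal complex is a zipper-like protein structure that joins homologous chromosomes along their length during prophase of the first meiotic division, when crossovers form. SYCP2 and SYCP3 build the lateral elements, the protein cores along which the chromatin loops of each homologue are attached. SYCP1 forms the transverse filaments that bridge both cores, and SYCE1, SYCE2, SYCE3 and TEX12 belong to the central element, where filaments from both sides meet. HORMAD1 and HORMAD2 mark chromosome axes that have not yet synapsed and are removed as the complex closes. In the testis these proteins are known from spermatocytes, and male mice without SYCP1, SYCP3, SYCE1, SYCE2 or TEX12 are infertile.

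The total expected count ranged from 25816963 to 37167651 in the 6-month group, from 21309151 to 24542362 at 18 months, from 16304058 to 17862516 at 4 years and from 38437889 to 52616039 in cattle–yak. The 18-month libraries were not alike. Their pairwise Pearson correlations of log2 CPM over 14930 genes went down to 0.762, while those within each other group were 0.973 or higher. In 18-month replicate 2, the summed FPKM of 9 round spermatid markers was 1208, against 5.82 in replicate 1 and 10.1 in replicate 3. Calls of the set in comparisons with this group are therefore given with and without replicate 2. The labels give no reason for the split.

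The axis genes had few footprints in the juvenile testis, except for the row labelled *HORMAD1*. *SYCP2* (ENSBGRG00000024249) had 0.03, 0.15 and 0.05 FPKM at 6 months, from 3, 17 and 5 counts. It had 0.36, 22.4 and 2.36 FPKM at 18 months, 26.5, 26.9 and 34.4 at 4 years, and 20.6, 7.04 and 7.61 in cattle–yak. The 3 yak libraries of 4 years were the highest of the 12, and cattle–yak replicate 1 stood well above the other hybrids.

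*SYCP3* (ENSBGRG00000000767), the partner of SYCP2 in the lateral element, had 0.51, 1.84 and 1.09 FPKM at 6 months and 5.89, 76.4 and 43.3 at 18 months. It had 78.4, 59.7 and 71.6 FPKM at 4 years and 148, 77.9 and 112 in cattle–yak. *SYCP3* was the single gene of the set whose mean was highest in cattle–yak, 113 ± 35.3 FPKM (SD, n = 3) against 69.9 ± 9.47 (SD, n = 3) in yak of 4 years. The ranges of these groups overlapped slightly, since the lowest hybrid lay just under the highest adult yak.

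*HORMAD2* (ENSBGRG00000023195) followed the pattern of *SYCP2* at a higher level. It had 1.22, 1.81 and 1.88 FPKM at 6 months, 1.95, 58.6 and 6.26 at 18 months, 83.8, 61.1 and 98.6 at 4 years and 28.4, 12.4 and 13.9 in cattle–yak. No hybrid library reached the lowest yak library of 4 years.

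The row labelled *HORMAD1* (ENSBGRG00000001109) behaved unlike all others. It had 123, 138 and 183 FPKM at 6 months, 163, 195 and 168 at 18 months, 189, 244 and 216 at 4 years, and 172, 181 and 166 in cattle–yak. Ordered by mean (6 months, cattle–yak, 18 months, 4 years), neighbouring groups overlapped at each step. Each hybrid library, however, lay below each yak library of 4 years. Its highest FPKM over the 12 libraries was 1.99 times its lowest, whereas the same ratio ranged from 20.8 (*TEX12*) to 1147 (*SYCP2*) for the other 7 genes. The median ratio over 14646 genes with FPKM above 0 in all libraries was 4.60, and 8.14% of those genes varied as little as this row or less.

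*SYCP1* (ENSBGRG00000006966), the transverse filament gene, had 0.29, 1.58 and 0.60 FPKM at 6 months, 2.82, 23.3 and 10.2 at 18 months, 30.5, 22.4 and 28.4 at 4 years and 29.1, 10.6 and 18.2 in cattle–yak. Cattle–yak replicate 1 fell among the adult yaks, and the other hybrids lay below them.

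The central element genes *SYCE2* and *SYCE1* had the highest means in adult yak after the *HORMAD1* row. *SYCE1* (ENSBGRG00000018058) had 0.50, 0.97 and 0.26 FPKM at 6 months, 2.48, 64.2 and 5.98 at 18 months, 112, 98.6 and 118 at 4 years and 29.6, 19.4 and 22.5 in cattle–yak. All hybrids were far below all adult yaks, with a spread of only 1.53-fold among the hybrids. *SYCE2* (ENSBGRG00000006880) had 2.66, 3.09 and 3.74 FPKM at 6 months, 4.19, 101 and 15.7 at 18 months, 181, 149 and 177 at 4 years and 126, 68.0 and 88.2 in cattle–yak. *TEX12* (ENSBGRG00000008586), which forms a complex with SYCE2, had 3.87, 9.10 and 4.79 FPKM at 6 months, 8.83, 55.3 and 21.4 at 18 months, 80.3, 56.6 and 79.2 at 4 years and 46.5, 28.7 and 32.9 in cattle–yak. For both, each hybrid library was below each adult yak library. Within the 18-month group replicate 2 was the highest library and replicate 1 the lowest for all 7 genes other than *HORMAD1*, with ratios between highest and lowest from 6.26 (*TEX12*) to 62.2 (*SYCP2*).

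**Figure D1:**
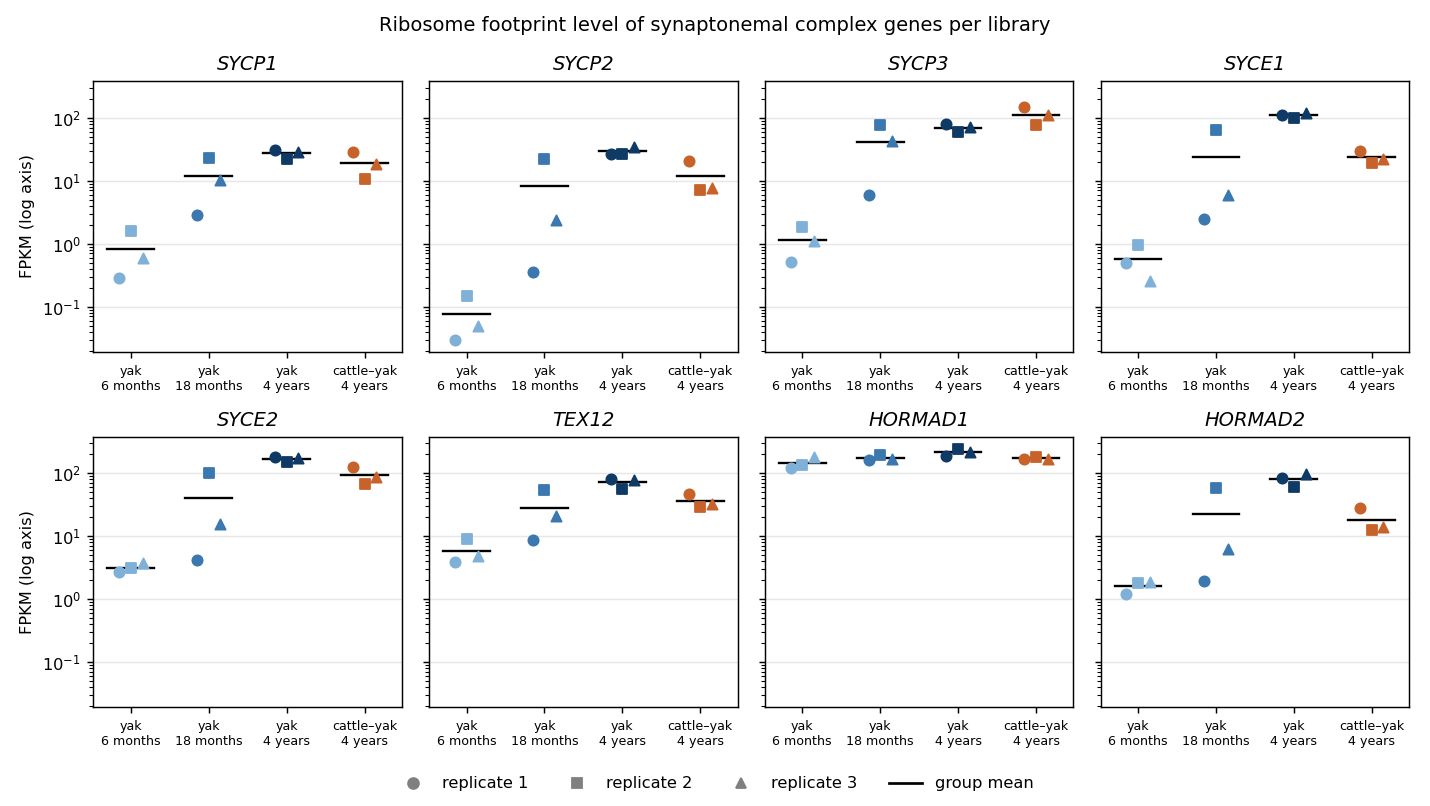
FPKM on a log axis of each synaptonemal complex gene in the 12 libraries, by group (points: libraries, shape: replicate number, line: group mean). In 7 genes the mean of the 6-month yaks is lowest and the 18-month yaks are spread widely, from 6.26-fold for *TEX12* to 62.2-fold for *SYCP2*, while the row labelled *HORMAD1* lies between 123 and 244 FPKM throughout.

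In sterile cattle–yak, compared with yak of the same age, *SYCE1*, *HORMAD2* and *SYCP2* were called lower and no gene of the set was called higher. A gene was called changed when edgeR's quasi-likelihood test gave a Benjamini-Hochberg adjusted p (over all genes tested) below 0.05 and its log2 fold change was at least 1 in size. *SYCE1* fell by 2.19 on the log2 scale (SE 0.188, edgeR adjusted p = 2.26e-05), a level 4.55-fold lower. *HORMAD2* fell by 2.13 (SE 0.345, edgeR adjusted p = 0.000794), and *SYCP2* fell by 1.29 (SE 0.409, edgeR adjusted p = 0.0223). Thus 3 of 8 genes were called lower, beside 27.0% of the 16498 genes tested, and 0 of 8 were called higher, beside 17.1% of them. The share of the set called lower was therefore near that of all genes. The median log2 fold change of the 8 genes was -0.91 against -0.0022 over all genes tested.

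The other 5 genes did not meet the call. *TEX12* was at -0.99 (SE 0.229, edgeR adjusted p = 0.00529) and *SYCE2* at -0.83 (SE 0.230, edgeR adjusted p = 0.0122), past the p threshold but short of the fold. *SYCP3* had the only positive log2 fold change, 0.70 (SE 0.240, edgeR adjusted p = 0.0303), also past the p threshold but short of the fold. This value was positive in all 15 alternative analyses, between 0.43 and 0.92, and was called in none of them. The row labelled *HORMAD1* was at -0.39 (SE 0.117, edgeR adjusted p = 0.0184), likewise short of the fold alone. *SYCP1*, at -0.47 (SE 0.335, edgeR adjusted p = 0.242), met neither threshold.

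Single animals moved part of these calls. *SYCE1* and *HORMAD2* were called lower whichever of the 6 libraries was left out, whereas *SYCP2* was called in 2 of these 6 analyses, with log2 fold changes from -2.02 to -1.02. Without cattle–yak replicate 1, the hybrid with the highest level of every gene but *HORMAD1*, 5 genes were called lower, with *TEX12* at -1.23 and *SYCE2* at -1.12 added. Of the 16326 genes then tested, 4438 were called lower. In a fit of all 12 libraries, whose single estimate of spread also covers the 18-month yaks, 0 genes of the set were called lower, beside 3944 of 16906 genes. The log2 fold changes there were -2.18 for *SYCE1* (edgeR adjusted p = 0.0617), -2.13 for *HORMAD2* (0.0652) and -1.29 for *SYCP2* (0.310).

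**Figure D2:**
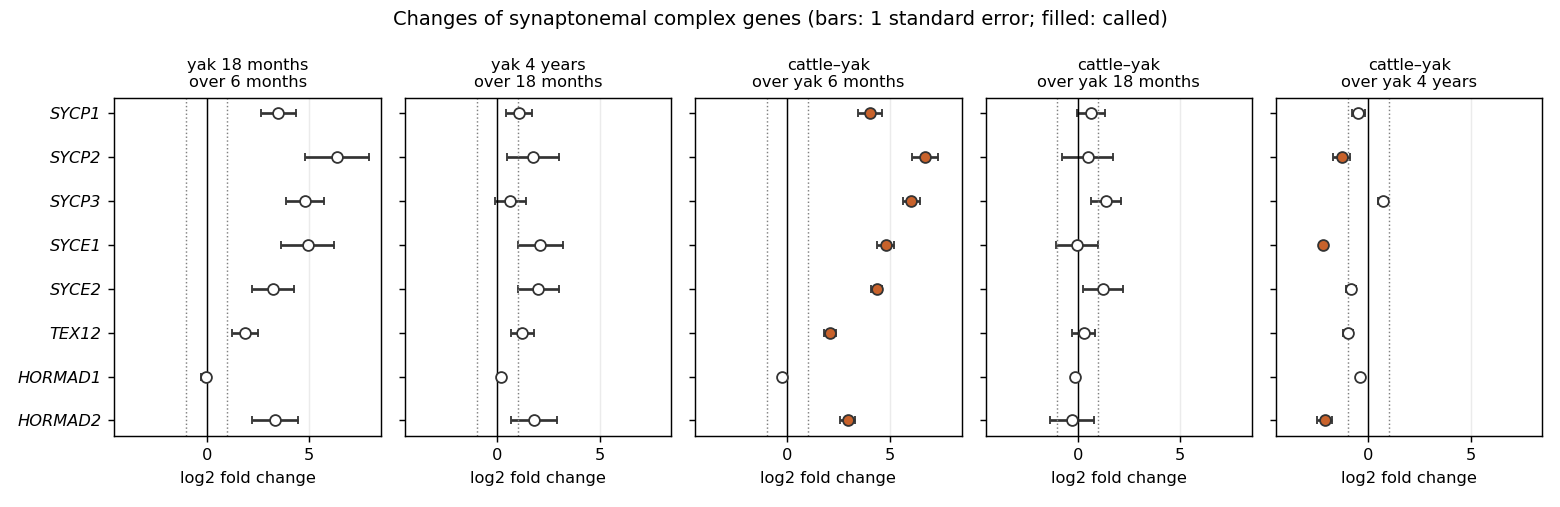
Log2 fold change (points, x axis) of each gene in 5 comparisons, with bars of 1 standard error, dotted lines at a size of 1 and filled points for genes called changed. In cattle–yak over yak of 4 years 3 points are filled on the lower side and *SYCP3* alone lies above 0, while in cattle–yak over yak of 6 months 7 points are filled on the higher side.

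The members therefore did not keep, in the hybrid, the proportions they had in yak of 4 years. With the *HORMAD1* row set aside, *SYCP3* made up 12.5 ± 0.717% of the summed FPKM of the other 7 genes in yak of 4 years and 35.8 ± 1.87% in cattle–yak (SD, n = 3 each). *SYCE1* took 19.7 ± 0.967% in yak of 4 years and 7.72 ± 0.871% in cattle–yak, and *HORMAD2* took 14.4 ± 1.70% and 5.62 ± 0.957%. The share of *SYCE2* was alike in both, 30.4 ± 1.18% and 29.9 ± 0.449%, and that of *TEX12* was 12.8 ± 0.825% and 11.6 ± 1.07%. The FPKM ratio of *SYCE2* to *TEX12* was likewise 2.38 ± 0.226 in yak of 4 years and 2.59 ± 0.194 in cattle–yak (SD, n = 3 each). It was 0.603 ± 0.233 at 6 months and 1.01 ± 0.714 at 18 months (SD, n = 3 each). This pair was picked with its levels known.

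The ratio of *SYCP3* to *SYCE1*, a lateral against a central element gene, was 0.700, 0.605 and 0.606 in yak of 4 years and 5.01, 4.02 and 4.98 in cattle–yak. The geometric means differed 7.31-fold, and the two-sided exact permutation test gave p = 0.10, which is the smallest p that 3 against 3 libraries allow. These genes were picked for the ratio with their levels known, so the choice set the outcome of this test and nothing is concluded from its p. At 18 months the ratio was 2.38, 1.19 and 7.24, and at 6 months 1.02, 1.90 and 4.19, where *SYCE1* rested on 8 to 36 counts.

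**Figure D3:**
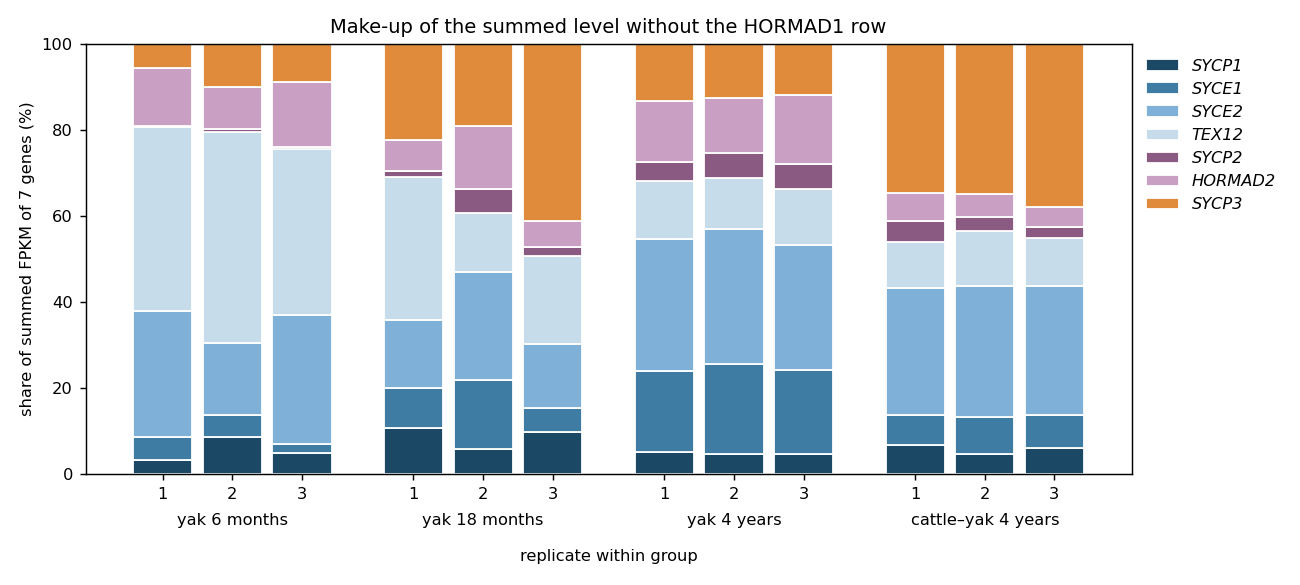
Stacked bars of the share (%, y axis) that each of 7 genes takes of their summed FPKM in each library, by group, without the row labelled *HORMAD1*. The part of *SYCP3* is 11.8–13.2% in yak of 4 years, 34.6–37.9% in cattle–yak and 41.2% in 18-month replicate 3. The part of *SYCE1* is smaller in the hybrids than in yak of 4 years, and *TEX12* is the largest part in the 6-month yaks.

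The RefSeq genes *SYCP3* and *SYCE2* of yak each overlap another gene (assembly Bosgru_T2T1.0, used here for names and neighbours only). Whether the deposited rows, made on another genome build, overlap in the same way was not tested. *SYCP3* overlaps *CHPT1*, a phospholipid synthesis gene, and *SYCE2* overlaps *GCDH*, a mitochondrial dehydrogenase gene, and whether the counting used strand is not given in the sources used here. Between hybrids and yaks of 4 years, *CHPT1* fell by 2.69 on the log2 scale (SE 0.215, edgeR adjusted p = 1.51e-05), opposite in sign to *SYCP3*. *GCDH* rose by 1.86 (SE 0.149, edgeR adjusted p = 1.49e-05), opposite in sign to *SYCE2*. Mean FPKM was 4.20 for *CHPT1* and 46.5 for *GCDH* in cattle–yak, and 27.1 and 12.8 in yak of 4 years. The part of shared reads in the *SYCP3* and *SYCE2* values was not tested.

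Markers of pachytene and later spermatocytes and of spermatids had larger log2 fold changes between the adult groups than the synaptonemal complex genes, with list medians of -3.78 for pachytene and later spermatocytes, -7.87 for round spermatids and -9.27 for elongating spermatids. The medians for spermatogonia, 1.01, and for meiotic entry, -0.94, were similar in size to the -0.91 of the set. The calls below stand beside 27.0% of all genes called lower and 17.1% called higher between these groups. The summed FPKM of 9 markers of round spermatids, haploid cells formed after meiosis, was 2052 to 3022 in yak of 4 years and 6.60 to 15.9 in cattle–yak, and all 9 were called lower. The sum of 6 markers of elongating spermatids was 9029 to 12263 and 77.9 to 162, and all 6 were called lower. Most of this hybrid sum was *ODF2*, at 71.8 to 132 FPKM, a gene that also had 8.16 to 15.6 FPKM in the 6-month yaks. For pachytene and later spermatocytes, the sum of 9 markers was 2206 to 2731 in yak of 4 years and 187 to 309 in cattle–yak, and 8 of the 9 were called lower. In contrast, the sum of 8 spermatogonia markers was 662 to 962 in yak of 4 years and 1495 to 1649 in cattle–yak, with 4 called higher. Sertoli cell markers, from the somatic nurse cells, summed to 674 to 938 and 1294 to 1546, with 5 of 9 called higher. The 4 markers of meiotic entry summed to 118 to 139 in yak of 4 years and 75.1 to 147 in cattle–yak, with 1 called higher and 2 lower.

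The 7 synaptonemal complex genes other than *HORMAD1* summed to 475 to 607 FPKM in yak of 4 years and 224 to 429 in cattle–yak. These ranges did not overlap, as for the pachytene markers. The sums of the meiotic entry markers did overlap, but their genes went in different directions. *ZCWPW1* was at 28.0 to 33.9 FPKM in yak of 4 years and 50.2 to 108 in cattle–yak. *MEIOC* (40.8 to 56.2 and 4.06 to 8.16), *YTHDC2* (18.8 to 20.8 and 8.32 to 14.65) and *DMRTB1* (28.6 to 35.5 and 12.5 to 16.8) were lower in each hybrid than in each yak of 4 years. Spermatid markers at 0 were *SUN5*, *TNP1* and *ODF1* in cattle–yak replicate 3 and *SPEM1* in cattle–yak replicates 2 and 3. The part of this different make-up of cells in the changes of the synaptonemal complex genes was not tested. Several defining markers had no row by symbol, among them *STRA8* and *MEIOSIN* for meiotic entry and *PRM1* and *PRM2* for elongating spermatids.

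**Figure D4:**
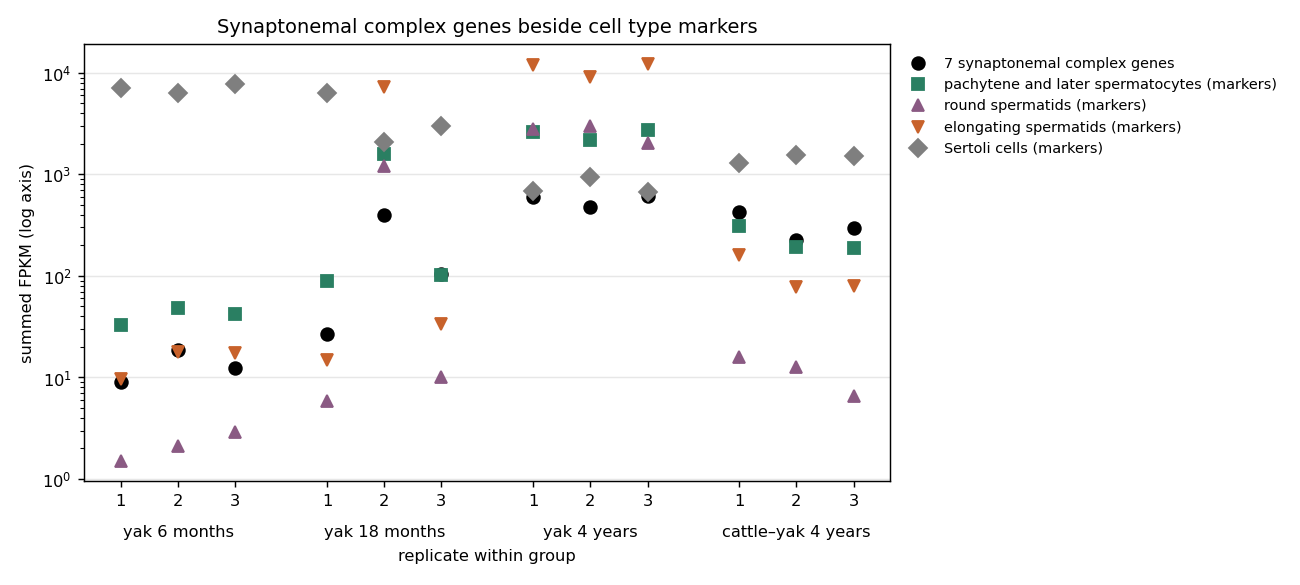
Summed FPKM on a log axis in each library for 7 synaptonemal complex genes (without *HORMAD1*) and for marker lists of pachytene and later spermatocytes, round spermatids, elongating spermatids and Sertoli cells. Among the 18-month yaks, replicate 2 carries spermatid marker sums of 1208 and 7308, and in cattle–yak the synaptonemal complex genes lie between 224 and 429 FPKM while round spermatid markers are at 15.9 or less.

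Against the juvenile testis, the adult hybrid testis had far more footprints on these genes. In cattle–yak over yak of 6 months 7 of 8 genes were called higher, beside 18.1% of the 15571 genes tested, and 0 were called lower, beside 19.7%. *SYCP2* rose by 6.70 on the log2 scale (SE 0.636, edgeR adjusted p = 7.84e-05), although 25 counts in all support its juvenile level, so the size of this fold is poorly fixed. *SYCP3* rose by 6.05 (SE 0.412, edgeR adjusted p = 1.86e-05), *SYCE1* by 4.80 (SE 0.413, edgeR adjusted p = 4.99e-05) and *SYCE2* by 4.36 (SE 0.266, edgeR adjusted p = 1.13e-05). The increases of *SYCP1*, *HORMAD2* and *TEX12* were 4.01, 2.94 and 2.08. The row labelled *HORMAD1* was at -0.24 (SE 0.152, edgeR adjusted p = 0.205). The same number of genes, 7, was called under all 15 alternatives, where the number of all genes called higher ranged from 2527 to 4982. No juvenile library overlapped the hybrid range for any of the 7. How many of all genes lack overlap was not counted, here or in the comparisons below, so no result is drawn from this. All 8 passed the filter on low counts, although *SYCP2* exceeded its minimum in 1 and *SYCE1* in 2 of the 3 juvenile libraries.

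Between 6 and 18 months the means of these 7 genes differed widely, but so did the 18-month yaks among themselves, and no call was reached. In yak of 18 months over 6 months, 0 of 8 genes were called higher, beside 0.0202% of 14874 genes, and 0 were called lower, beside 0.0471%. Log2 fold changes were 6.36 for *SYCP2*, 4.94 for *SYCE1*, 4.78 for *SYCP3*, 3.50 for *SYCP1*, 3.34 for *HORMAD2*, 3.24 for *SYCE2* and 1.88 for *TEX12*, with edgeR adjusted p between 0.0596 and 0.136. All 7 had an unadjusted p below 0.05. The row labelled *HORMAD1* was at -0.053 (SE 0.201, edgeR adjusted p = 0.883). The groups did not overlap for 6 of the 7, a count that was not set against all genes. For *TEX12* the lowest 18-month library (8.83 FPKM) lay under the highest juvenile one (9.10). *SYCP2* passed the filter through the 18-month group, since 1 juvenile library exceeded the minimum, and *SYCP3* and *SYCE1* exceeded it in 2.

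The call in this comparison depended on the tool and on single libraries. Without 18-month replicate 1, the library with the lowest levels, all 7 genes were called higher, beside 1344 of the 15454 genes tested. DESeq2 and the edgeR fit of all 12 libraries also called 7, beside 1061 of 14874 and 1827 of 16906 genes. The calls over all genes thus rose in these settings too. Without 18-month replicate 2, 0 were called, beside 34 of 15071 genes, and the log2 fold changes of the 7 were smaller. They were then 4.04 for *SYCP3*, 3.66 for *SYCP2*, 2.64 for *SYCP1*, 2.51 for *SYCE1*, 1.29 for *SYCE2*, 1.02 for *TEX12* and 0.98 for *HORMAD2*, with edgeR adjusted p between 0.0639 and 0.308.

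From 18 months to 4 years, all 8 log2 fold changes were positive, from 0.21 for *HORMAD1* to 2.12 for *SYCE1*, and none was called. Of the 16175 genes tested, 0% were called higher and 0.0371% lower, and no gene of the set had an unadjusted edgeR p below 0.05. DESeq2 called 1 gene of the set, *TEX12*, at 1.32 (adjusted p = 0.0345), beside 2092 of all 16175 genes called higher. Without 18-month replicate 2, edgeR called 6 genes of the set higher in yak of 4 years, beside 4277 of the 16377 genes then tested. The 6 were *SYCE1* at 4.51, *SYCP2* at 4.41, *HORMAD2* at 4.13, *SYCE2* at 3.93, *TEX12* at 2.08 and *SYCP1* at 1.91. The log2 fold change of *SYCP3* was then 1.38, without a call. In that replicate, *SYCP1* and *SYCP3* were within the range of the yaks of 4 years, *TEX12* and *HORMAD2* were just under it, and *SYCE1*, *SYCE2* and *SYCP2* were further below.

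Cattle–yak and yak of 18 months overlapped in FPKM for 7 of the 8 genes, and for *SYCP3* the lowest hybrid (77.9 FPKM) lay just above the highest 18-month yak (76.4 FPKM). None was called, beside 3.45% of 15702 genes called higher and 2.34% called lower, and none had an unadjusted edgeR p below 0.05. Log2 fold changes ran from -0.29 (SE 1.07) for *HORMAD2* to 1.39 (SE 0.737) for *SYCP3*. Those of *SYCE1*, *HORMAD2*, *SYCP2* and *TEX12* changed sign between settings. Without 18-month replicate 2, *SYCP2* rose by 3.10, *SYCE2* by 3.09 and *SYCE1* by 2.32 in the hybrids. Of the 16139 genes then tested, 1166 were called higher.

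Other genes of chromosome axis, synapsis, homologue pairing and meiotic recombination gave a context for the set. Of 35 such genes listed, 25 had a row. Against yak of 4 years, 14 of the 25 were called lower in cattle–yak, beside 27.0% of all genes tested, and 1 higher, beside 17.1%. Their median log2 fold change was -1.17. The lowest was *TERB1*, which helps to tether telomeres to the nuclear envelope in meiosis, at -2.43 (SE 0.220, edgeR adjusted p = 3.01e-05). The 1 called higher was *MEI4*, needed for meiotic DNA breaks, at 1.42 (SE 0.194, edgeR adjusted p = 0.000302), with a mean of 9.33 FPKM in cattle–yak and 3.51 in yak of 4 years. Against yak of 6 months, 21 of the 24 genes tested were called higher in cattle–yak, beside 18.1% of all genes, with a median of 3.30. The genes called ranged from 1.74 for *TRIP13*, whose product takes HORMAD proteins off the axes, to 7.50 for *C14orf39*, which encodes the central element protein SIX6OS1. Both comparisons share the cattle–yak libraries. None of these genes was called in the comparisons with yak of 18 months, where few genes were called at all. For 18 over 6 months, 0.0202% of all genes were called higher and 0.0471% lower. For 4 years over 18 months the shares were 0% and 0.0371%, and for cattle–yak over yak of 18 months 3.45% and 2.34%. Calls of these genes without 18-month replicate 2 were not counted, so no result is drawn from this.

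The *HORMAD1* row was examined further, because its product belongs to meiotic axes while its mean at 6 months, 148 ± 31.2 FPKM (SD, n = 3), was not far below the 217 ± 27.7 FPKM (SD, n = 3) of yak of 4 years. The juvenile libraries, 123 to 183 FPKM, nevertheless all lay below those of yak of 4 years, 189 to 244 FPKM. Its FPKM lay at percentiles 94.5 to 96.8 of all genes in the 12 libraries, while *SYCP2* lay at percentiles 21.1 to 26.5 at 6 months. In the annotation that the authors deposited with the tables, this row carries the gene ontology terms for proteolysis and for cysteine-type peptidase activity beside that of the synaptonemal complex, and is the only member to carry the terms of proteolysis and peptidase activity. On the RefSeq annotation, the next coding gene after *HORMAD1* is *CTSS*, which encodes the cysteine protease cathepsin S of macrophages and other antigen-presenting cells. *CTSS* had no row by symbol in the deposited tables.

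The length used for this row also varied between libraries. The effective length implied by count, FPKM and library total was 979 to 988 bases in the 6-month yaks, 977, 1080 and 980 in the 18-month yaks, 1112, 1038 and 1109 in yak of 4 years and 1062, 1012 and 1009 in cattle–yak. Over the libraries with 100 or more counts, this quantity differed 1.14-fold for the *HORMAD1* row, 1.13-fold for *SYCP2* and at most 1.0037-fold for the other 6 genes. Libraries with fewer counts were left out of this range, since the rounding of low counts and FPKM values adds to it. In RSEM, the effective length of a gene is the mean over its transcripts weighted by their abundance. The long values thus fell in the libraries with the highest levels of the other synaptonemal complex genes, 18-month replicate 2 and cattle–yak replicate 1 among them. The 6 macrophage markers summed to 336 to 514 FPKM in the juvenile, 176 to 361 in the pubertal and 124 to 290 in the adult yaks, and to 174 to 236 in the hybrids. Whether this row holds transcripts of a neighbouring gene was not tested, so its values are given as those of the row and not as a level of *HORMAD1* alone.

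**Figure D5:**
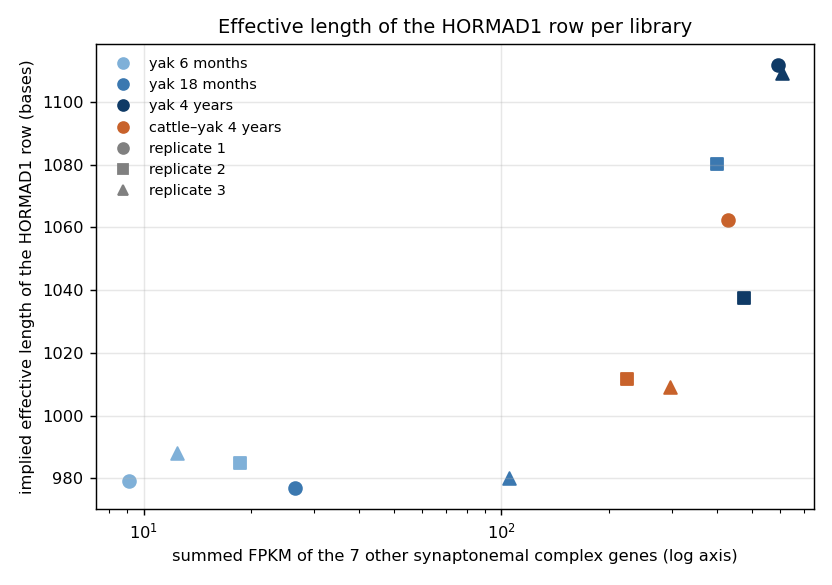
Implied effective length (bases, y axis) of the row labelled *HORMAD1* against the summed FPKM of the 7 other genes (log axis) in each of the 12 libraries (colour: group, shape: replicate). The 5 libraries of 6 and 18 months with low sums lie between 977 and 988 bases, and 18-month replicate 2 lies at 1080 among the adult libraries.

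Over all 12 libraries the 7 genes moved together. Pearson's r of log2 CPM with the mean profile of the set was 0.987 for *SYCP2*, 0.985 for *TEX12*, 0.983 for *SYCE1*, 0.982 for *HORMAD2*, 0.975 for *SYCE2*, 0.950 for *SYCP1* and 0.898 for *SYCP3*. For the row labelled *HORMAD1* it was 0.227 on this scale and 0.797 on the log2(FPKM + 1) scale, where the other 7 genes had 0.924 to 0.989. Each gene is part of the mean, and the 12 points share groups and cell make-up, so these values are descriptions. Between pairs of the 7, r was lowest for *SYCP3* and *HORMAD2* (0.817).

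Among 7021 genes ranked by the same measure over the 12 libraries, *TDRKH* (r = 0.994), a tudor domain gene of the piRNA pathway, was closest to the mean profile, followed by *DNAJA4*, *TRIP12*, *UPF2*, *RRP1B*, *SPDL1*, *RMC1*, *RBM44*, *SMC1B* and *TRIM37* (r = 0.988). Of these, *SMC1B* is the cohesin subunit of meiotic chromosomes, and it was also the gene most like *SYCP2* (r = 0.996) and *TEX12* (r = 0.989). Its mean FPKM was 1.11 in the juvenile, 26.1 in the pubertal and 85.8 in the adult yaks, and 33.7 in the hybrids. For *SYCE1* the closest gene was *RMC1*, for *SYCE2* *SYNRG*, for *SYCP1* *SLC25A31*, for *SYCP3* *HERC5* and for *HORMAD2* *UIMC1*. The closest gene to the row labelled *HORMAD1* was *FAN1*, at r = 0.892. On the log2(FPKM + 1) scale 6 of the 10 closest genes were shared.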

How the data were processed

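Ribo-seq libraries of 12 testes were used. Per the labels and the study's methods, the authors trimmed reads, removed rRNA and other small RNAs with Bowtie2 and BLAST, kept reads of 20 to 40 bases, aligned them to the yak genome with STAR and quantified genes with RSEM. The expected count per gene was deposited by the authors as whole numbers without normalization. The deposited FPKM scales it by effective length and library total. Authors' group means, fold changes and p-values in the tables were not used.

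Groups followed the labels, and each of 5 comparisons used its 6 libraries. After filterByExpr and TMM scaling, edgeR 4.0.16 (R 4.3.3) gave quasi-likelihood tests with Benjamini-Hochberg adjustment over all genes tested. The standard error was the log2 fold change over the square root of F. The steps were tested on simulated counts. Alternatives were library size alone, RLE and upper quartile scaling, no filter, all 12 libraries, a replicate block, DESeq2 1.42.0, limma 3.58.1 on log2(FPKM + 1) and log2(FPKM + 0.1), and leaving out each library. The replicate numbers did not pair the animals (correlations of deviations between -0.36 and 0.15).

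Members, the 35 meiotic genes and the marker lists were chosen with earlier results of these data known. All members were named, and of the 35 genes the called ones with the highest and lowest log2 fold change. *CHPT1*, *GCDH*, *CTSS* and the ratios of *SYCP3* to *SYCE1* and of *SYCE2* to *TEX12* were chosen after values were seen.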

Additional observations from a re-analysis of the deposited data

How the results depend on the processing

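Counts of genes called changed moved most in comparisons with yak of 18 months. In yak of 18 months over 6 months, 0 genes were called higher in the analysis reported, 7 in the fit of all 12 libraries, 3 with a replicate block, 7 with DESeq2, 1 with limma on log2(FPKM + 0.1), and 0 to 7 when single libraries were left out. In yak of 4 years over 18 months the count of 0 became 1 with DESeq2 and 0 to 6 without single libraries. Between cattle–yak and yak of 18 months it was 0 to 3 without single libraries. Between cattle–yak and yak of 4 years the 3 genes called lower became 0 in the fit of all 12 libraries and 2 to 5 without single libraries, and 4 with RLE scaling, a replicate block, DESeq2 and limma on log2(FPKM + 0.1), where *TEX12* passed a size of 1. In cattle–yak over yak of 6 months, 7 were called throughout. Apart from the 3 calls in yak of 18 months over 6 months and that of *TEX12*, the block changed no call, and 2 member values had no adjusted p in DESeq2.

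Signs turned for these log2 fold changes, none of which was called in the analysis reported. For *HORMAD1*, 18 over 6 months (-0.053) gave 0.31 with library size alone, 0.26 with limma at either pseudocount and -0.15 to 0.066 without single libraries, and cattle–yak over yak of 6 months (-0.24) gave 0.29, 0.24 and 0.25. Library size alone moved the median of all genes in these comparisons from 0.049 to 0.42 and from -0.018 to 0.52. In cattle–yak over yak of 18 months, *SYCE1* (-0.025) gave 0.038 without the filter, 1.25 with the replicate block, 1.07 and 1.23 with limma at the larger and smaller pseudocount, and -0.53 to 2.32 without single libraries. *HORMAD2* (-0.29) gave 0.85 with the replicate block, 0.73 and 0.90 with limma, and -0.82 to 1.99 without single libraries. There, *SYCP2* ranged from -0.27 to 3.10 and *TEX12* from -0.086 to 1.08 without single libraries. The cause of these shifts was not tested. Counts of all genes called in comparisons with yak of 18 months also varied. For 18 over 6 months, 3 higher and 7 lower became 1061 and 807 with DESeq2 and 235 and 303 with the replicate block. Without 18-month replicate 1 they became 1344 and 1249. For 4 years over 18 months, 0 and 6 became 2092 and 2291 with DESeq2. Without 18-month replicate 2 they became 4277 and 3033.

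With 3 animals a group and 3 to 36 counts for *SYCP2* and *SYCE1* at 6 months, fold sizes against the juvenile group are imprecise.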
